A study of Mus musculus with 15 samples.

Results

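The renin-angiotensin system genes described here are 8 genes chosen by name, Agt, Ren1, Ace, Enpep, Agtr1a, Agtr1b, Agtr2 and Mas1, out of 46517 genes in the deposited RNA tables. All 8 were found by symbol and all 8 passed the filter on low counts. Messenger RNA was sequenced from newborn (P0) C57BL/6 mouse kidney of 2 genotypes with 3 libraries each, Dnmt1 f/f controls and knockouts (KO) that were Six2Cre Dnmt1 f/f. Both groups therefore carried the floxed alleles of Dnmt1, the maintenance DNA methyltransferase, and only the KO carried Cre, driven by the promoter of Six2, a nephron progenitor gene. Deletion is thus directed at cells that have expressed Six2 and their descendants, and kidney cells of other origin keep the floxed gene. Reduced representation bisulfite sequencing (RRBS), which reads cytosine methylation in fragments cut at CCGG, covered 3 controls and 3 KO of the same genotypes at P0 and 3 wild-type adults aged 6 weeks. The labels name the source as Six2-positive cells while their DNA extraction step used entire kidneys, and they do not state whether libraries came from separate animals, so p-values measure only the spread between these libraries.

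The renin-angiotensin system is a peptide cascade that controls blood pressure and salt balance and is needed for normal growth of the kidney. Renin, made by juxtaglomerular cells of the kidney arterioles, cuts angiotensinogen to angiotensin I, and angiotensin-converting enzyme cuts that to angiotensin II. Angiotensin II acts mainly through type 1 receptors, is degraded by aminopeptidases, and is opposed in part by the type 2 receptor and by Mas. Renin cells of the mouse kidney arise from Foxd1-expressing stroma, outside the Six2 lineage, whereas proximal tubule and podocytes arise from Six2 progenitors.

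The start regions differ in how many CG sites methylation could act on, and the sequences are shown for that reason. Each line gives the 250 bases before an annotated start, 5′ to 3′ on the gene's strand, from RefSeq on GRCm38.p6, with capitals marking CG dinucleotides and the motif TATAAA. Ren1 (chr1:133350424-133350673, + strand), Agt (chr8:124569707-124569956, − strand), Ace at its upstream start (chr11:105967698-105967947, + strand) and at its internal start (chr11:105974939-105975188, + strand), Enpep (chr3:129332750-129332999, − strand) and Agtr1b (chr3:20367178-20367427, − strand) follow.
Ren1: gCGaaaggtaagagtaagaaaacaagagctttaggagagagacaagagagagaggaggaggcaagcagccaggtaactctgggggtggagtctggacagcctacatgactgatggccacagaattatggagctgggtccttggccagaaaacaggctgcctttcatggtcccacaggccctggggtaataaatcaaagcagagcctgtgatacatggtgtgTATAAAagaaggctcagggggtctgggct
Agt: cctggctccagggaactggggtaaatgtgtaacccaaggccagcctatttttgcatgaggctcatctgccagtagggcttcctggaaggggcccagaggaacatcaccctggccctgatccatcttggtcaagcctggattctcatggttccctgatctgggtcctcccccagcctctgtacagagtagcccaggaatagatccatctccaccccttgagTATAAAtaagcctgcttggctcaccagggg
Ace upstream start: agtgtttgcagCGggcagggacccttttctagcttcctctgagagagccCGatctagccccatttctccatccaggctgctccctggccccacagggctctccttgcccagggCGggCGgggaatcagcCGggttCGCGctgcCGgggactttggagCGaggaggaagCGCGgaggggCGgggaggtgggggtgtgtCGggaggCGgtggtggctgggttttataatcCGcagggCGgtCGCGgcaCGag
Ace internal start: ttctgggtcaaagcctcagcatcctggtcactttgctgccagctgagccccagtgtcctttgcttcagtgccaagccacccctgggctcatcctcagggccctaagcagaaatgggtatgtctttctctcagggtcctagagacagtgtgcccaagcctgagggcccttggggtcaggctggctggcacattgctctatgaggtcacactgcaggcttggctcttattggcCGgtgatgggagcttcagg
Enpep: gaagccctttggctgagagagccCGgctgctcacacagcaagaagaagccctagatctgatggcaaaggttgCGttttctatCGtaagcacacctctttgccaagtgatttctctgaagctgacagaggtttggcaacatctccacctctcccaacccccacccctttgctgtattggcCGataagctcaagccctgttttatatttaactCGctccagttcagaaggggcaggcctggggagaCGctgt
Agtr1b: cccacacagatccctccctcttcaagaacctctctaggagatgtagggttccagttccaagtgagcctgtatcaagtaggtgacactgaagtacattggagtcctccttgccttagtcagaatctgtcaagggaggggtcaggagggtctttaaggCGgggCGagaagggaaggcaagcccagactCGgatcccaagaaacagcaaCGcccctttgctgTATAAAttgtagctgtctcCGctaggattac

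Over 300 bases, from 250 before to 50 after the start, the Ren1 and Agt regions each held 1 CG, and 14.1% of 32851 such regions in the table held no more than that. The upstream Ace region held 29 CG, a number reached by 12.9% of regions, while the internal Ace start held 2. Enpep held 7, Agtr1b and Agtr2 held 5 each and Mas1 held 2, beside a median of 7. TATAAA on the gene's own strand began 29 bases before the start in Ren1, 30 in Agt and 31 in Agtr1b, and 8.32% of all regions held it on that strand anywhere. The letters were also met on the opposite strand in Ace and Enpep, and 13.6% of regions had them on either strand. CCGG occurred in the regions of Ace at both starts and of Enpep, and in 52.8% of all regions.

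Reads assigned to genes numbered 26773937 to 34102567 per RNA library, and 22.9% to 35.8% of reads were not assigned. Dnmt1 transcripts fell in the KO, from 175 ± 16.6 to 105 ± 9.57 CPM (counts scaled to library size with TMM, mean ± SD, n = 3 each), a log2 fold change of −0.74 (SE 0.12; edgeR quasi-likelihood test, Benjamini-Hochberg adjusted p = 0.00577). Kidney markers were present in every library, with Cdh16 at 1004 CPM in controls and 722 in KO. Control 3 stood apart from the other controls: its proximal tubule markers summed to 5424 CPM beside 2883 and 2604, and Ddx3y, a Y-linked gene, had 35 reads there and at most 1 elsewhere. X-linked Xist and Y-linked Ddx3y, Kdm5d, Uty and Eif2s3y together summed to 1018, 2017 and 1260 CPM in controls 1 to 3. In KO they summed to 1832 to 2786 CPM. These sums do not separate X-linked from Y-linked reads. Only 1 of these 5 genes passed the filter, and the sex of the sources was not tested. Of the 18132 genes tested, 1493 (8.23%) fell and 1153 (6.36%) rose in the KO at an adjusted p under 0.05, 14.6% in either direction, and 3235 (17.8%) had every KO library below every control.

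Of the 8 members, 3 fell (Ace, Enpep and Agtr1a) and none rose, and 5 had every KO library below every control. The median log2 fold change over the members was −1.18, beside −0.00 over all genes tested. The genes that fell encode the converting enzyme, an aminopeptidase and the main type 1 receptor. Agt and Ren1 were lower in each KO library than in any control and missed the threshold, and Agtr1b, Agtr2 and Mas1 overlapped between the groups. In RNA from a mixed tissue, fewer cells of a type and less RNA per cell cannot be told apart.

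**Figure D1:**
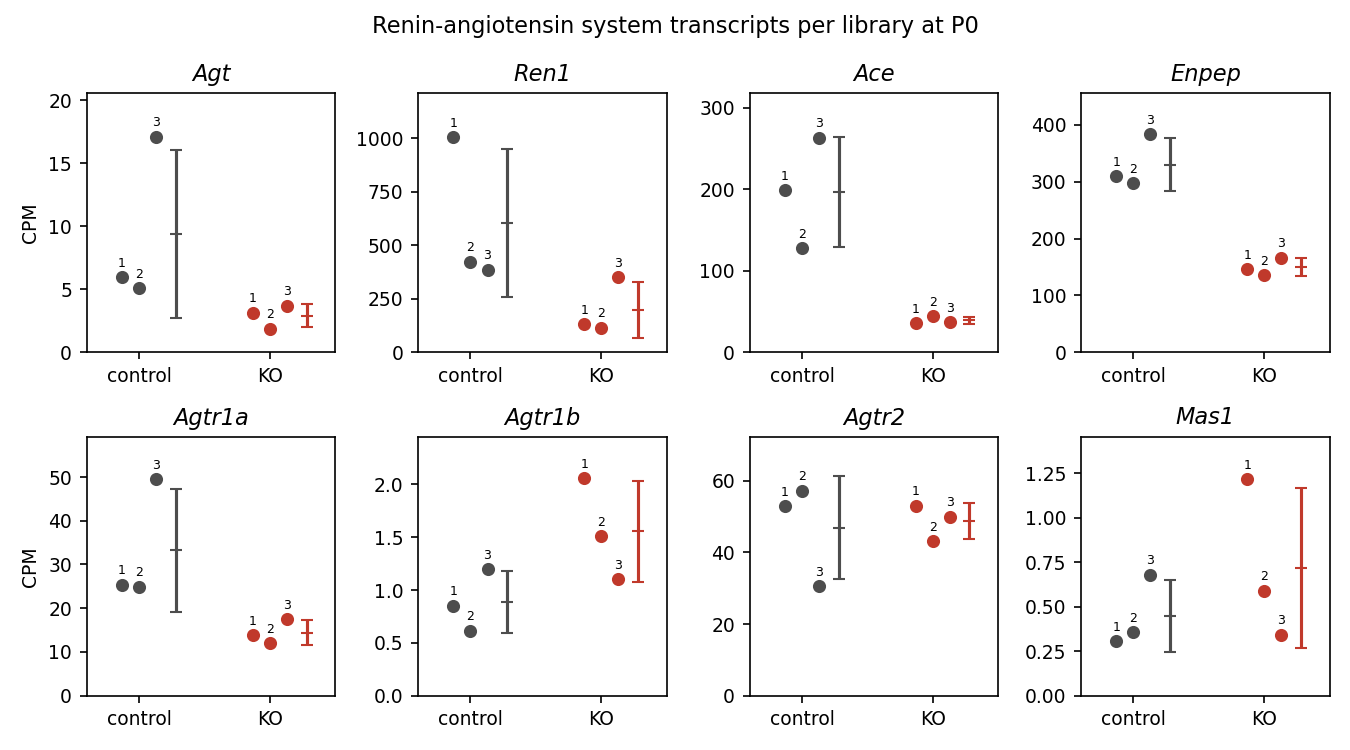
CPM of each member in each library (points, numbered by replicate), with the mean and SD of each group at the right of its points; every panel has its own linear axis starting at 0. Ace fell from 127 to 263 CPM in controls to 35.8 to 44.4 in KO, while Ren1 in KO 3 (349 CPM) lay just under control 3 (385 CPM).

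Agt (ENSMUSG00000031980.9, chr8:124556587-124569706) encodes angiotensinogen, the substrate of the cascade. Its level was 5.97, 5.08 and 17.1 CPM in controls 1 to 3 and 3.15, 1.87 and 3.69 CPM in KO 1 to 3. Control 3 held 3.09 times the mean of the other controls, and the KO libraries were all lower than the lowest control. Agt differed by −1.70 on the log2 scale, with an SE of 0.50 and an edgeR adjusted p of 0.0567. Without control 3 it was −0.93 with an adjusted p of 0.043, and DESeq2 on all libraries gave an adjusted p of 0.0029, so the call depended on the test and on that library. Over 13 alternative settings the adjusted p ran from 0.0029 to 0.182.

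Ren1 (ENSMUSG00000070645.5, chr1:133350674-133360320) encodes renin, the aspartyl protease that cuts angiotensinogen. Its level was 1004, 422 and 385 CPM in controls and 130, 113 and 349 CPM in KO. Levels differed widely within the groups: the highest control was 2.61 times the lowest, the highest KO 3.08 times the lowest, and KO 3 was close to control 3. The log2 fold change was −1.61 (SE 0.51, 95% interval −2.79 to −0.43), with an adjusted p of 0.0744 by edgeR and 0.120 by DESeq2. Single libraries moved it widely, to −1.04 (adjusted p = 0.224) without control 1 and to −2.31 (adjusted p = 0.0244) without KO 3. Without control 3 it was −1.86 (edgeR adjusted p = 0.0225), and voom with quality weights called it as well (−2.13, adjusted p = 0.0086). Some mouse strains carry a near-identical Ren2 gene that would share reads with Ren1, though C57BL/6 is a strain with Ren1 alone.

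Ace (ENSMUSG00000020681.13, chr11:105967948-105989964) encodes angiotensin-converting enzyme, carried in kidney by endothelium and by the proximal tubule brush border. Its level was 199, 127 and 263 CPM in controls and 35.8, 44.4 and 36.9 CPM in KO. The KO libraries lay close together, and the highest of them was far below the lowest control. Ace fell 5.04-fold, the largest decrease among the members (log2 fold change −2.33, SE 0.25; edgeR adjusted p = 0.000848), and passed the threshold under all 13 alternatives. The gene has an upstream start for the somatic enzyme and an internal start for the testis form, and counts per gene do not separate them. Its bounds overlap the non-coding gene Gm11651, and without a stated strand setting reads of the pair cannot be told apart where they overlap.

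Enpep (ENSMUSG00000028024.13, chr3:129269177-129332749) encodes glutamyl aminopeptidase, also called aminopeptidase A, which converts angiotensin II to angiotensin III. Its level was 309, 297 and 384 CPM in controls and 146, 135 and 166 CPM in KO. Spread within each group was small, and the groups were far apart. Enpep fell 2.21-fold (log2 fold change −1.14, SE 0.15; edgeR adjusted p = 0.00178) and also passed under all 13 alternatives.

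Agtr1a (ENSMUSG00000049115.13, chr13:30336356-30382867) encodes the main type 1 receptor of angiotensin II in the mouse kidney. Its level was 25.3, 24.9 and 49.5 CPM in controls and 13.8, 12.0 and 17.4 CPM in KO. Control 3 was 1.97 times the other controls, and all KO libraries were lower than all controls. Agtr1a fell 2.31-fold (log2 fold change −1.21, SE 0.29; edgeR adjusted p = 0.0273). Leaving out control 3 made the change smaller, −0.80 with an adjusted p of 0.0075. The call was lost without KO 1, KO 2 or KO 3 (adjusted p = 0.109, 0.108 and 0.0544) and with library size alone as scaling (0.0534).

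Agtr1b (ENSMUSG00000054988.9, chr3:20314473-20367177), the second type 1 receptor gene of rodents, is a close paralog of Agtr1a, so reads that match both could be lost or shared. It was at 0.853, 0.615 and 1.20 CPM in controls and 2.06, 1.51 and 1.10 CPM in KO, which rests on 19 to 66 reads a library. KO 1 and KO 2 were above every control and KO 3 was below control 3. The difference did not pass the test (log2 fold change 0.80, 95% interval −0.05 to 1.66; edgeR adjusted p = 0.205).

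Agtr2 (ENSMUSG00000068122.9, chrX:21484624-21488833) encodes the type 2 receptor, which is prominent in fetal tissues. It was at 52.9, 57.2 and 30.5 CPM in controls and 53.0, 43.1 and 50.0 CPM in KO. Control 3 was the lowest of all, and the other libraries overlapped. The log2 fold change was 0.06 (95% interval −0.46 to 0.57; edgeR adjusted p = 0.909), an interval that excludes a change as large as that of Ace, Enpep or Agtr1a in these libraries, and without control 3 it was −0.18.

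Mas1 (ENSMUSG00000068037.9, chr17:12838841-12868150) encodes a receptor for angiotensin 1-7. It had 9 to 39 reads a library, 0.305, 0.356 and 0.680 CPM in controls and 1.22, 0.590 and 0.342 CPM in KO. The groups overlapped and the interval was wide (log2 fold change 0.68, −0.56 to 1.92; edgeR adjusted p = 0.479). Mas1 overlaps the non-coding gene Airn, with which reads could be confused. Among receptors, then, Agtr1a fell, and no other receptor passed the test.

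Other genes of the pathway were taken from a list of 25, of which 21 were tested, with a median log2 fold change of −0.09. Of these 21, 5 fell and 1 rose, beside 8.23% and 6.36% of all genes tested. All 5 that fell were peptidases, among the 14 of 16 peptidase genes tested. Among them were Anpep (−2.66), which encodes the brush border aminopeptidase N that acts on angiotensin III, Klk1 (−1.95), the kallikrein that releases kinins, Ctsa (−0.77), a lysosomal carboxypeptidase, and Mme (−0.73), which encodes neprilysin. Anpep was at 469, 566 and 467 CPM in controls and 68.2, 93.4 and 76.6 CPM in KO. Of the 9 receptors and partners 7 were tested and only Arap1, which encodes a protein linked to type 1 receptor traffic, passed, rising by 0.50. Mrgprd had no read in any library.

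**Figure D2:**
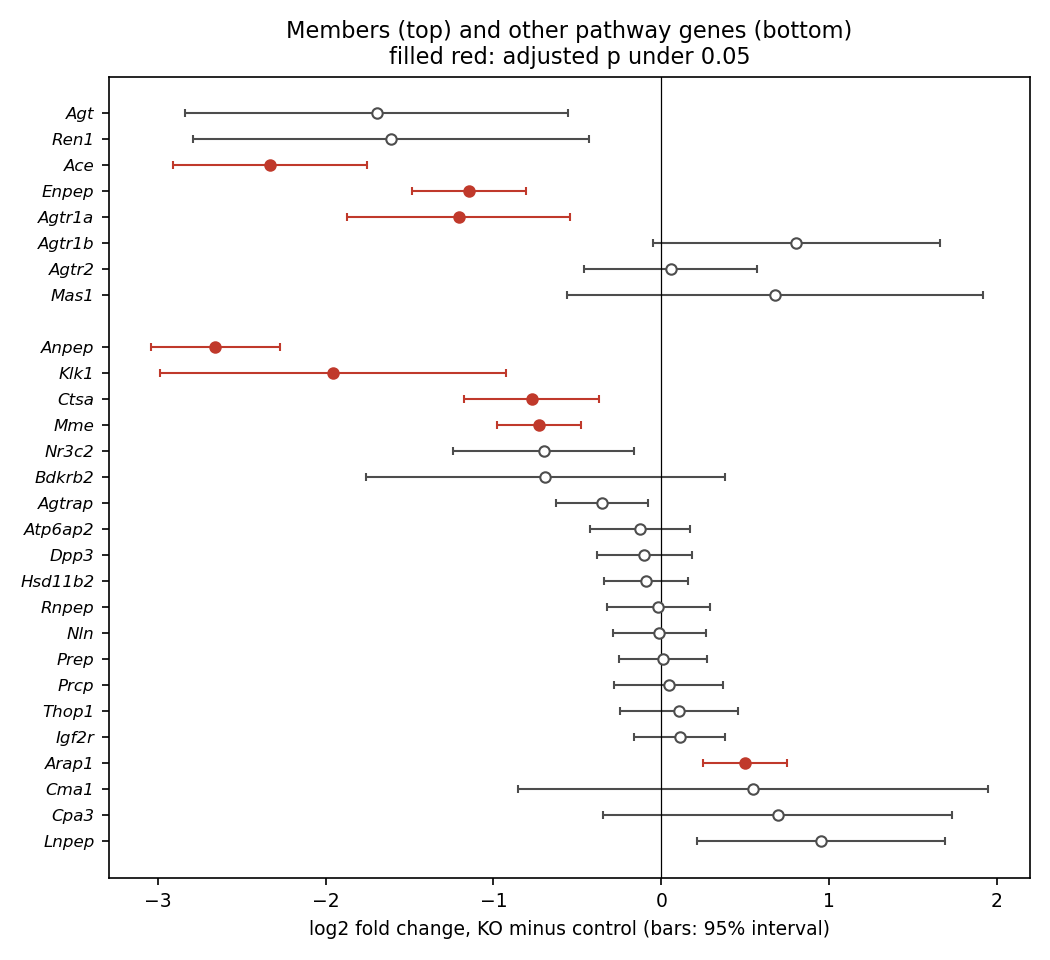
Log2 fold changes, KO minus control, of the 8 members (top) and of other tested pathway genes (bottom), with 95% intervals from the edgeR fit; filled red symbols had an adjusted p under 0.05. Ace (−2.33) and Anpep (−2.66) lie furthest to the left, and the red symbols on the right side are limited to Arap1 (0.50).

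Genes known to regulate renin were listed too, and 21 of 22 were tested, with a median log2 fold change of −0.17. Adrb1 (−3.78), the beta-1 adrenergic receptor that drives renin release, Casr (−2.74), the calcium-sensing receptor, Vdr (−1.94), the vitamin D receptor, Gja5 (−1.30), the gap junction protein connexin 40 of renin cells, and Nr1h3 (−1.20), a liver X receptor gene, fell. Ptgs2 (1.32), the macula densa cyclooxygenase, Adora1 (0.62), an adenosine receptor, and Creb1 (0.59), the cyclic AMP response factor, rose. Adrb1 was rare, at 1.31, 0.421 and 1.60 CPM in controls and 0.125, 0.0984 and 0 CPM in KO. In all, 5 fell and 3 rose, beside 8.23% and 6.36% of all genes tested, and 13 passed in neither direction. Whether each gene promotes or restrains renin was not taken into account, so the tally gives no direction for renin.

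Markers of cell types moved with the members as follows, and their part in the members' differences was not tested. All 12 proximal tubule markers fell (median −2.61), their sum going from 2604 to 5424 CPM in controls to 626 to 739 CPM in KO, and 6 of 10 endothelial markers fell (median −0.74, from 1090 to 1509 CPM to 703 to 883 CPM). The proximal tubule is known to make both Ace and Enpep. Of 12 mural and renin-lineage markers only Cspg4 fell (−0.59), with a median of −0.15 and sums of 1441 to 1668 CPM in controls and 1045 to 1394 CPM in KO. Every KO library was below every control for 5 of these 12 and above for 1, beside 17.8% and 16.5% of all genes tested. Akr1b7, a renin cell marker, was at 30.3, 14.3 and 14.4 CPM in controls and 19.2, 23.8 and 9.92 CPM in KO, with a log2 fold change of −0.15 (edgeR adjusted p = 0.847). Of 10 stroma markers Foxd1 (1.63), Pdgfra (0.79) and Meis1 (0.54) rose and none fell, while 6 of 8 podocyte and mesangial markers fell (median −1.01). Adrenal markers summed to 5.27 to 9.02 CPM in controls and 6.49 to 6.65 CPM in KO, with Cyp11b1 and Cyp11b2 at or near 0, and of 6 leukocyte markers tested Ms4a2 fell (−2.14) and Ptprc rose (0.79).

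**Figure D3:**
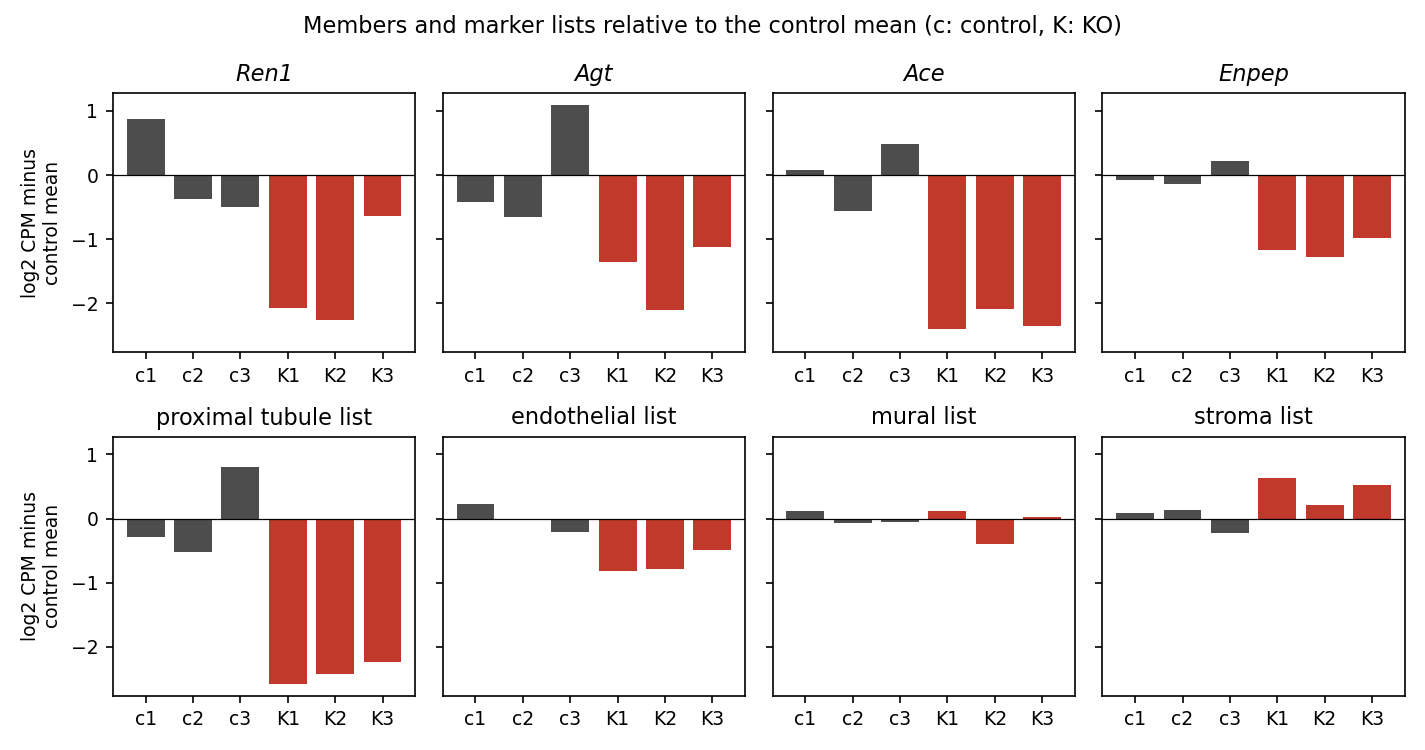
Log2 CPM of each library minus the mean of the 3 controls, for 4 members (top) and for the mean over the genes of 4 marker lists (bottom); bars start at 0. Control 3 was raised for Agt (1.09) and for the proximal tubule list (0.80) and not for Ren1 (−0.51), and the mural list stayed between −0.39 and 0.12.

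Members differed in which libraries were high. Across the 6 libraries, as a description in which genotype and control 3 enter every value, log2 CPM of Agt and Agtr1a had a Pearson r of 0.98 and that of Ace and Enpep 0.97, while Ren1 had 0.60 with Agt and 0.73 with Ace. The genes most like each member among 13082 included Pknox2 and Inpp4a for Agt (r 0.996 to 0.999), Rtn2, Ephb1 and Kcnn1 for Ren1 (0.993 to 0.994), and Bhlhe40, Myo15b and Slc25a3 for Ace (0.999 each). For Enpep they were Tmem116, Clrn3 and Lamp1, and for Agtr1a they were Slc5a2, Aoah and Slc2a2, of which Slc5a2 and Slc2a2 encode glucose transporters of the proximal tubule. For Agtr1b they were Trrap, Prr14l and Plk1, for Agtr2 they were Enho, Fbxo33 and Bcl7c, and for Mas1 they were Lin9, Nova1 and Dclre1b. Ace had 799 genes with r of at least 0.95, Enpep 600 and Ren1 58. Pearson r does not measure the size of a change. Log2 fold changes were −0.45 for Pknox2, −0.34 for Inpp4a, −0.31 for Rtn2, −0.50 for Ephb1 and −0.42 for Kcnn1. For Bhlhe40, Myo15b and Slc25a3 they were −1.08, −1.59 and −0.83, and for Slc5a2, Aoah and Slc2a2 −3.91, −2.48 and −1.85.

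Methylation near the starts could be tested for 3 members between KO and control, from P0 libraries with a median of 4 to 16 calls per position. For Agtr1a no annotated start or strand was at hand, and its window lies at the lower-coordinate end of the gene, taken here in place of a start. Windows held positions within 1000 bases of a start with at least 10 calls in every library compared, and at least 3 such positions were needed. All 3 windows were nearly free of methylation in both groups. At Agtr1a, 5 positions had 0.658%, 1.09% and 1.69% in controls (152 to 276 calls each) and 0% in all KO libraries (104 to 253 calls). At Enpep, 3 positions had 3.37%, 1.21% and 1.52% in controls and 1.69%, 0% and 0% in KO, and at Agtr1b 5 positions had 0.952%, 1.68% and 1.26% and then 2.4%, 0% and 5.0%. None passed the quasi-likelihood test (adjusted p = 0.326 for Agtr1a, 0.822 for Enpep and 0.939 for Agtr1b), beside 11.1% of 13988 windows that fell and 0.0715% that rose. The upstream Ace start had only 1 position at that depth. At a minimum of 5 calls it had 9 positions, with 1.39% in controls and 0.847% in KO (edgeR adjusted p = 0.722). All calls there, over 68 positions without a minimum, gave 1.23% to 1.82% in controls and 2.12% to 2.67% in KO, which was not tested. Ren1, Agtr2 and Mas1 had no position near their start in any library and Agt had 5, with at most 7 calls in a P0 library, so their starts were not measured.

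Away from the starts 3 members had enough positions for a test, and all 3 had less methylation in the KO. Positions within the gene bounds extended by 2000 bases and more than 1000 bases from a start were summed per gene. Ace had 87.8%, 89.4% and 92.1% in controls and 62.2%, 64.4% and 80.1% in KO over 17 positions, of which all 17 had a lower KO mean. Enpep had 80.6%, 81.9% and 82.5% in controls and 62.2%, 52.5% and 58.9% in KO over 13 positions, 12 of them lower. Agtr1a had 80%, 84.0% and 78.7% in controls and 66.3%, 68.8% and 60.4% in KO over 6 positions, of which 3 were lower and 3 were not. Summed over positions, all 3 fell in the test, where 81.3% of 11542 genes fell and 0.0866% rose, so the count does not set the members apart.

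The size of the decrease can be read beside genes of like control methylation. Genes at 80% to 90% in controls had a median difference of −23.5 percentage points, with quartiles at −27.0 and −20.5. Ace (−20.9) and Enpep (−23.8) lay within these quartiles and Agtr1a (−15.7) was outside them on the side of a smaller decrease. With positions weighing the same, Agtr1a differed by −6.99 points and the exact permutation p was 0.2, where 3 libraries against 3 cannot go below 0.1. Within 2000 bases of the internal Ace start, methylation fell from 88.7% ± 0.890 to 60.0% ± 9.12 over 6 positions (SD, n = 3 each). Of all windows at that width, 18.5% fell and 0.0545% rose. All 6 positions lay more than 1000 bases from that start and are among the 17 distant Ace positions given above. The window at the upstream start fell too, from 78.6% ± 5.51 to 49.5% ± 1.12 over 3 positions. But it mixes methylated positions, also among those 17, with a position less than 1000 bases upstream. That position had 0%, 12.5% and 3.23% in controls and 0%, 0% and 10% in KO. With positions weighing the same, that window had 61.1% in controls and 41.2% in KO.

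Few positions stood for the remaining members. The only Ren1 position with enough calls, 1037 bases after the start, had 29.4%, 37.5% and 31.7% in controls and 18.1%, 26.2% and 33.3% in KO, so the groups overlapped. At a minimum of 5 calls Ren1 had 3 positions and went from 32.0% to 23.7% (edgeR adjusted p = 0.0372). At that minimum 11265 of 13790 genes tested fell. The Ren1 positions at 1198 and 1237 bases had 7 calls each in control 1 and 5 in KO 3, all unmethylated. An Agt position had 74.1%, 61.5% and 76.7% in controls and 27.3%, 37.0% and 0% in KO, the last from 14 calls. At 5 calls Agt also had 3 positions and went from 75.6% to 36.6% (edgeR adjusted p = 5.43e-05). At its positions 12713 and 12704 bases after the start, KO 3 had 60% and 100%, from 5 calls each. Agtr1b had no position away from its start at 10 calls, and over 3 positions at 5 calls it had 83.0% in controls and 70.0% in KO, which did not pass (edgeR adjusted p = 0.213). At 2 positions beyond the end of Agtr2, methylation was 92.8% ± 0.629 in controls and 61.3% ± 6.74 in KO. Mas1 had none.

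**Figure D4:**
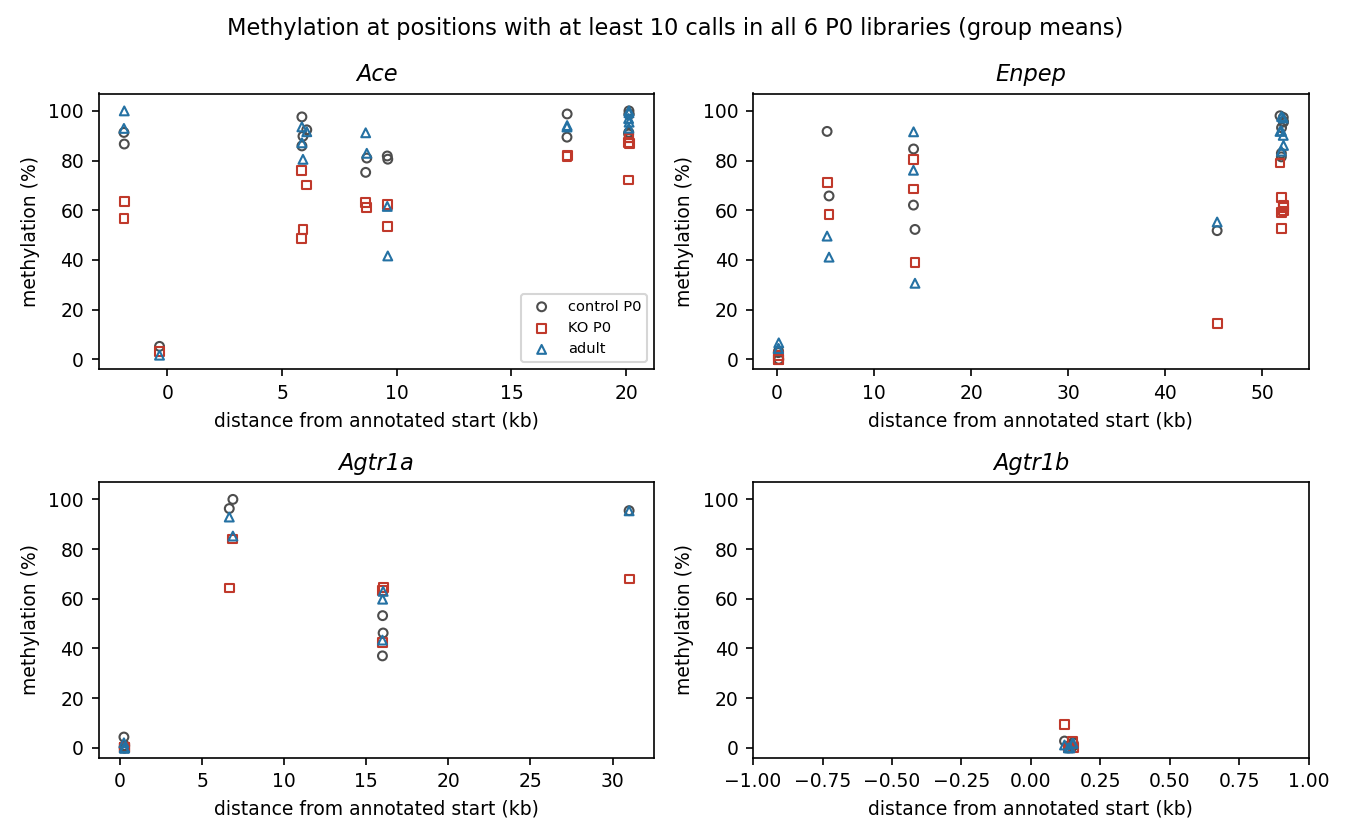
Mean methylation (percent) of each group at each position with at least 10 calls in all 6 P0 libraries, by distance from the annotated start in kilobases, for the 4 members with positions near a start; the Agtr1a distance is from the lower-coordinate end of the gene. Positions close to the starts lie near 0% in all groups, and the KO squares of Ace lie below the control circles at all 17 distant positions.

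Wild-type adults differed from P0 controls in age and in carrying no floxed allele, so these cannot be told apart, and there is no adult RNA here. Near the starts none of the 4 windows tested passed: Ace had 0.922% in both groups over 19 positions, Agtr1a 1.54% and 0.637%, Agtr1b 1.30% and 0.973%, and Enpep 3.94% and 5.44%, in controls and adults. Of 18653 windows, 19.4% were lower and 4.98% higher in adults. Beyond the starts Enpep was lower in adults, at 75.4%, 76.8% and 77.1% beside 80.5%, 81.7% and 82.7% (adjusted p = 0.0338), where 17.9% of 13374 genes were lower and 8.66% higher, and leaving out any library ended that call (adjusted p 0.0801 to 0.155). Ace had 83.9% in controls and 84.9% in adults over 29 positions, Agtr1a 79.8% and 75.6% over 13, and Agt 80.9% and 76.1% over 5, and none of these passed. Within 2000 bases of the upstream Ace start the summed calls gave 26.2% in controls and 14.5% in adults (adjusted p = 0.00304), where 18.7% of windows were lower and 6.24% higher. With positions weighing the same, that window had 9.12% in controls and 9.83% in adults, so its direction depended on how calls were summed.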

How the data were processed

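RNA files hold raw read counts per gene deposited by the authors, and RRBS files hold deposited counts of methylated and unmethylated calls per position. Trim Galore, Bismark, STAR 2.4.1d and HTSeq 0.6.1, with builds mm10 and GRCm38, are named in the submitters' processing notes, and the strand setting and annotation are not given in the sources used here. The members and gene lists were chosen with earlier results of these data known. Gene counts were tested with edgeR 4.0.16 (quasi-likelihood, TMM, its filter on low counts) in R 4.3.3, adjusted over all 18132 genes at 0.05. Alternatives used DESeq2 1.42.0 and voom of limma 3.58.1, among others. Lines of unassigned reads were left out. Named genes were all members, every other pathway or regulator gene past the threshold, and the 3 genes most correlated with each member; a pathway gene and a correlated gene that this rule names are not reported here. Methylated and unmethylated calls were summed per window and tested with the quasi-likelihood fit of edgeR, with a term per library. Both scripts were tested on simulated data. The first version of the methylation fit, with an estimated dispersion, recovered no change in its test on simulated data and was replaced by dispersion 0 after it had been run on the real calls. The windows away from starts were added because 4 members lacked calls near theirs, and positions near starts were taken out of them after the results with those positions had been seen. Both first versions are given among the alternatives. Same-numbered control and KO RNA libraries did not deviate together (correlations of −0.236, −0.0653 and −0.124), so the numbers were not treated as pairs.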

Additional observations from a re-analysis of the deposited data

How the results depend on the processing

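Ace and Enpep kept their fall in RNA under all 13 alternatives; Ren1 passed the threshold in 4, Agt in 6 and Agtr1a in 9. Counts over all genes tested, lower then higher, were 2595 and 2442 with voom, 681 and 528 at an adjusted p under 0.01, and 678 higher with at least 10 counts in every library; members that fell numbered 5 with voom and 5 without a filter. Leaving out each library gave 701 to 2561 lower, 647 to 2512 higher and 2 to 5 members. Agtr2 turned to −0.16 with voom and ran from −0.18 (without control 3) to 0.22 without each library, with −0.01 without KO 1. With the replicate block 4 members fell, Agt with them (−1.53, edgeR adjusted p = 0.0213), and the RRBS start windows higher in KO numbered 37; the cause was not tested, and the block changed no other member call in RNA.

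Windows near starts that were lower and higher in KO numbered 2331 and 16 at 5 calls and 599 and 4 at 20 calls. Within 500 bases they numbered 798 and 6. Within 2000 bases 3050 were lower, with 2 member windows (both Ace), whose methylated positions also count among the distant Ace positions. The higher counts without each library ran from 7 to 23 and the lower from 1188 to 2303. The estimated dispersion that was first fitted gave 841 lower, and 29 higher away from starts. For adults, 20 calls gave 1940 lower, 500 bases 593 higher, and 2000 bases 1 member window, the upstream Ace start, whose position mix changes; leaving out libraries gave 2348 to 3515 lower. Away from starts, 5 member windows fell in KO at 5 calls (Ren1 and Agt beside Ace, Enpep and Agtr1a), where 11265 of 13790 genes fell. Leaving out each library gave 3 to 4 member windows lower and 6 to 22 genes higher. At 20 calls 5665 genes were lower. For adults there, 5 calls gave 0 members lower and 1 higher (Ren1, 32.0% to 54.1%), where 2656 of 14588 genes were lower and 1209 higher. Leaving out libraries gave 0 members lower and 0 to 1 higher. With positions near starts kept, as first run, 4399 genes and 2 members were lower in adults; Agtr1a was then −17.5 points (adjusted p = 0.000735), a value in which near-start and distant positions weigh by their calls. Signs turned near the start of Agtr1b in KO (−0.0979 without KO 3, up to 2.4 points without others). In adults they turned near the starts of Ace (0.0926 at 5 calls; −0.669 to 0.552 without each library, 0.286 without adult 1), Agtr1b (−1.13 to 0.162) and Enpep (−1.75 to 3.24), and for Ace away from starts (−1.15 to 2.52; −1.51 with near-start positions); none of these had passed the test.

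Agtr1b and Mas1 had few reads, and the starts of Ren1, Agt, Agtr2 and Mas1 lacked calls. KO 3 had the fewest RRBS calls.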
